A study of Canis lupus familiaris with 6 samples.

Results

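The 9 genes described here belong to epithelial cells and to the contacts between cells: the cadherins CDH1 and CDH2, the junction protein JUP, the claudin CLDN1, the keratins KRT14, KRT8 and KRT18, the protease inhibitor SPINT1 and the adhesion molecule NCAM1. They were chosen by symbol, with their levels in these libraries already known, so those levels are given as a description and without a test. Of the 9 genes, 8 had a row among the 30951 genes of the tables, 18011 of which carry a symbol. No row carried the symbol KRT8, which is not analysed here. Enough counts for a test across all genes were present for 7 of the 8, and KRT18 was below that limit.

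The 6 libraries are RNA sequencing of the canine melanoma cell lines CMM2 and CMM12. Each line gave 1 control library, of wild-type genotype per the labels, and 2 libraries of podoplanin (PDPN) knockout lines, called KO 1 and KO 2 below. No further allele or agent is named for any group. The sources used here do not give how the gene was disrupted, whether a KO line is a single clone or whether libraries came from separate cultures. The p-values below therefore describe the spread among these 6 libraries, and that spread may be technical.

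Classical cadherins bind the same cadherin on the neighbouring cell and are tied to actin through catenins. CDH1 (E-cadherin) is the cadherin of epithelia, through which melanocytes also contact keratinocytes, and CDH2 (N-cadherin) is that of mesenchymal and neural cells. The replacement of CDH1 by CDH2, called the cadherin switch, is well known in melanoma and in the epithelial-mesenchymal transition. Claudins seal tight junctions and keratins form the intermediate filaments of epithelial cells.

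The libraries held 9732927 to 11807835 counts. PDPN had 212 counts in the CMM2 control and 64 and 59 in CMM2 KO 1 and KO 2, and 1017 in the CMM12 control against 167 and 102. In CPM (counts scaled to a common library size), each CMM2 KO library kept 27.6% of the control level, and the CMM12 KO libraries kept 17.4% and 11.4%. Of 10 melanocytic markers, MITF and RAB27A made up most of a summed level of 43.9 to 90.0 TPM (transcript level per length). DCT was at 0 counts in all 6 libraries and MLANA, TYR, SOX10 and S100B had at most 1 count in any library. TYRP1 had 0 counts in each CMM2 library and 43, 47 and 62 in the CMM12 control, KO 1 and KO 2. PMEL had at most 27 counts in a library and GPR143 at most 8. Of 8 keratinocyte markers 4 had a row, with 17.6 to 31.2 TPM summed in CMM2 and 38.7 to 45.1 in CMM12, and DSG1 was at 0 in every library. The leukocyte markers PTPRC and CD3E were at 0 in all 6 libraries, while the row named CD79A stood at 3150 to 4542 TPM. Whether that row holds CD79A transcripts was not settled here, so its level is not read as a leukocyte signal. Endothelial markers summed to at most 2.42 TPM and glial markers to at most 11.2 TPM. The fibroblast markers summed to 343, 787 and 2779 TPM in the CMM2 control, KO 1 and KO 2, and to 2185, 820 and 1361 TPM in those of CMM12. In bulk libraries, fewer cells that carry a transcript and less of it per cell cannot be told apart.

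Both lines carried CDH2 at like levels, and CDH1 was read only in CMM12, at a few TPM or less. CDH2 (ENSCAFG00000018115) stood at 86.7, 87.7 and 42.5 TPM in the CMM2 control, KO 1 and KO 2, and at 71.7, 85.5 and 82.2 TPM in the CMM12 control, KO 1 and KO 2. The groups overlapped, and CMM2 KO 2 was the one low library. Mean CDH2 was 72.3 ± 25.8 TPM in CMM2 and 79.8 ± 7.18 TPM in CMM12 (SD over the control and both KO libraries, n = 3 each). On counts, the log2 fold change of CMM12 over CMM2 was 0.02 (SE 0.29), and it was -0.30 without CMM2 KO 2. By rank of TPM, CDH2 lay at 1849, 1838 and 3597 in CMM2 and at 2464, 1940 and 2143 in CMM12. The lines were thus not ordered by CDH2.

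CDH1 (ENSCAFG00000020305) had 0 counts in all 3 CMM2 libraries. In CMM12 it had 73, 47 and 34 counts in the control, KO 1 and KO 2, which is 6.30, 4.28 and 3.33 CPM. Every CMM12 library was therefore above every CMM2 library, although none was high. The CMM12 mean of 4.64 ± 1.52 CPM (SD, n = 3) was at least 16.7-fold higher than the level of 3 counts per CMM2 library, the floor used for genes at 0, which is 0.262 to 0.286 CPM there. Per length, CDH1 in CMM12 was 1.80, 1.12 and 0.96 TPM, so CDH2 stood 39.8, 76.3 and 85.7 times above it in the same libraries. CDH1 made up 2.45%, 1.29% and 1.15% of the TPM of both cadherins together. A loss of CDH2 beside the CDH1 of CMM12 was thus not seen: the line with CDH1 reads had CDH2 at the level of the line without them.

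CDH2 shared the cadherin pool with other members of the family, and its share differed between libraries. The pool was taken as 22 genes with a row: CDH1, CDH2 and the cadherins of the adherens junction list described below. Cadherins outside that list were not summed. The 22 genes summed to 136, 184 and 170 TPM in CMM2 and to 162, 117 and 124 TPM in CMM12. CDH2 took 63.6%, 47.8% and 25.0% of that sum in CMM2, and 44.4%, 73.1% and 66.1% in CMM12. CDH1 took at most 1.11% of it. The gene next to CDH2 differed by line. CDH6, a cadherin of kidney and neural crest, stood at 25.1, 52.6 and 80.2 TPM in CMM2 and at 4.15, 4.15 and 1.00 TPM in CMM12, so that it exceeded CDH2 in CMM2 KO 2 only. CDH13, which is anchored to the membrane by a lipid and lacks a cytoplasmic tail, stood at 8.50, 25.8 and 40.4 TPM in CMM2 and at 55.5, 14.9 and 32.8 TPM in CMM12. CDH13 was lowest in the control of CMM2 and highest in the control of CMM12.

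**Figure D1:**
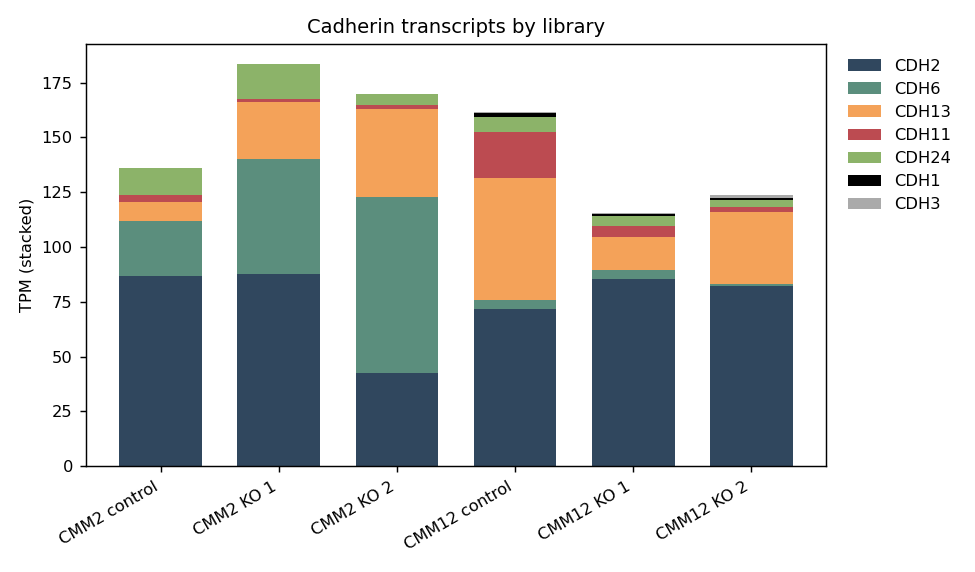
Stacked TPM of those cadherin genes of the summed pool that reached 1 TPM in any of the 6 libraries, each as its own colour. CDH2 is the tallest block in 5 of the libraries and CDH6 in CMM2 KO 2, and CDH1 is a sliver of at most 1.80 TPM in CMM12.

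Against the control of its own line, CDH2 was lower in 1 of the CMM2 KO libraries and higher in both CMM12 KO libraries. In CMM2, KO 1 stood at 99.1% of the control in CPM and KO 2 at 47.4%, with a 95% exact counting interval of 0.446 to 0.503 for the ratio of KO 2. The log2 fold change of KO over control in CMM2 was -0.45 (SE 0.42), -0.02 without KO 2 and -1.08 without KO 1. In CMM12, KO 1 and KO 2 stood at 130% and 113% of the control, a log2 fold change of 0.28 (SE 0.43). The KO effect in CMM12 minus that in CMM2 was 0.73 (SE 0.61) for CDH2, and 0.29 without CMM2 KO 2. CDH1 in the CMM12 KO libraries was at 68.0% and 52.8% of the control, with counting intervals of 0.461 to 0.995 and 0.341 to 0.804 for the ratios and a log2 fold change of -0.72 (SE 0.70). The intervals cover counting error only, and the fitted errors were about as large as these differences or larger.

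JUP (plakoglobin, ENSCAFG00000015912), a catenin shared by adherens junctions and desmosomes, was low in CMM2 and higher in every CMM12 library. It had 31, 74 and 82 counts in the CMM2 control, KO 1 and KO 2, and 284, 309 and 626 in those of CMM12. In TPM these were 1.04, 2.30 and 2.80 in CMM2 and 9.80, 10.4 and 24.8 in CMM12. The lowest CMM12 library lay above the highest CMM2 library. The means were 5.73 ± 2.48 CPM in CMM2 and 38.0 ± 20.2 CPM in CMM12 (SD, n = 3 each), a ratio of 6.63 and a log2 fold change of 2.77 (SE 0.34). Within each line both KO libraries had more JUP than the control: 218% and 262% of it in CMM2, and 115% and 250% in CMM12. The log2 fold change of KO over control was 1.26 (SE 0.57) in CMM2 and 0.87 (SE 0.50) in CMM12, and the latter was 0.20 without CMM12 KO 2. The effects differed by -0.39 (SE 0.73), CMM12 minus CMM2.

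The related catenin CTNNB1 (beta-catenin), which binds the same site of classical cadherins, was far more abundant than JUP in every library. JUP made up 0.422%, 0.870% and 0.810% of the TPM of JUP and CTNNB1 together in CMM2, and 3.40%, 3.50% and 7.61% in CMM12. CTNNB1 itself averaged 686 ± 116 CPM in CMM2 and 639 ± 34.8 CPM in CMM12 (SD, n = 3 each), with a log2 fold change of -0.10 (SE 0.16, edgeR adjusted p = 0.685), a direction that turned to 0.04 when limma was run on log2(TPM + 1).

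CLDN1, SPINT1, KRT14, KRT18 and NCAM1 had 0 counts in each CMM2 library, as CDH1 did. At 0 counts in a single library, a level of up to 0.286 CPM is allowed there. The 5 genes differed in how their CMM12 counts fell over the control and the KO libraries.

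SPINT1 (HAI-1, ENSCAFG00000009365), the membrane inhibitor of matriptase and of the activator of hepatocyte growth factor, was the most even of the 5. It had 368, 477 and 489 counts in the CMM12 control, KO 1 and KO 2, or 25.1, 31.6 and 38.1 TPM. All 3 libraries were of the same order, with both KO libraries above the control. The CMM12 mean was 41.0 ± 8.32 CPM (SD, n = 3), at least 148-fold higher than the floor in CMM2. KO 1 and KO 2 stood at 137% and 151% of the control, with a log2 fold change of 0.52 (SE 0.33). Its paralog SPINT2 (HAI-2) also had 0 counts in CMM2, and had 34.6, 15.7 and 23.0 TPM in the CMM12 libraries. SPINT2 was 1.38 times SPINT1 in the control and 0.498 and 0.604 times SPINT1 in KO 1 and KO 2, so the order of the paralogs was opposite in the control and the KO libraries. Proteases of this system had few reads: matriptase (ST14) had 1 count over all 6 libraries, hepsin (HPN) 1 and prostasin (PRSS8) 0. The activator of hepatocyte growth factor (HGFAC) had 4, 3 and 2 counts in the CMM2 control, KO 1 and KO 2 and 3, 6 and 2 in those of CMM12. EPCAM, an epithelial surface protein, had 3 counts over the 6 libraries.

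CLDN1 (ENSCAFG00000029313), a sealing claudin of tight junctions that is abundant in epidermis, had most of its reads in 1 library. It had 133 counts in the CMM12 control, 6 in KO 1 and 5 in KO 2, or 6.36, 0.28 and 0.27 TPM. The KO libraries were at 4.77% and 4.26% of the control, and the control was 22.1 times the pooled KO level (95% exact counting interval 11.96 to 45.3). The log2 fold change of KO over control was -4.44 (SE 0.76).

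KRT14 (ENSCAFG00000031250), the type I keratin of basal keratinocytes, was also highest in the CMM12 control. It had 205 counts in the CMM12 control, 1 in KO 1 and 10 in KO 2, or 13.0, 0.06 and 0.75 TPM. The control was 34.1 times the pooled KO level (counting interval 18.6 to 69.3), with a log2 fold change of -5.04 (SE 1.07) that was -4.16 without KO 1 and -7.43 without KO 2. The row named KRT14 lists 10 transcripts, and its near-identical relatives KRT16 and KRT17 were not matched to a row by symbol, so reads of these keratins cannot be told apart and the level is uncertain. KRT18 (ENSCAFG00000007154), the type I keratin of simple epithelia, was lowest in the CMM12 control, where KRT14 was highest. It had 0 counts in the CMM12 control, 2 in KO 1 and 10 in KO 2. These are 0, 0.17 and 0.98 TPM, and KRT18 in the control and KO 1 lay under the floor of 3 counts. Its partner KRT8, beside which it lies in the dog assembly UU_Cfam_GSD_1.0 of RefSeq, is the one not analysed here.

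NCAM1 (CD56, ENSCAFG00000013844), an adhesion molecule of the immunoglobulin family found on neural and neural crest cells, also had nearly all of its reads in the CMM12 control. It had 313 counts there, 8 in KO 1 and 1 in KO 2, or 6.36, 0.15 and 0.04 TPM. The KO libraries stood at 2.701% and 0.362% of the control, and the control was 63.6 times the pooled KO level (counting interval 33.1 to 140). The log2 fold change was -5.97 (SE 0.92), -7.95 without KO 1 and -5.19 without KO 2. The enzymes that add polysialic acid to NCAM1 did not share its order. ST8SIA2 was at 0 in CMM2 and at 1.90, 0.365 and 4.50 CPM in the CMM12 control, KO 1 and KO 2. ST8SIA4 was at 1.34, 1.31 and 2.84 CPM in CMM2 and at 5.87, 7.57 and 5.87 CPM in CMM12.

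Ordered by TPM, the CMM12 control had CDH2 first at 71.7, then SPINT1 at 25.1, KRT14 at 13.0, JUP at 9.80, CLDN1 and NCAM1 at 6.36 each and CDH1 at 1.80. In CMM12 KO 2 the order was CDH2 at 82.2 TPM, SPINT1 at 38.1 and JUP at 24.8, with KRT18, CDH1, KRT14, CLDN1 and NCAM1 at 0.98 TPM or less. The first places of CDH2 and SPINT1 were thus the same in both libraries, and the members behind them changed places. In CMM2, CDH2 and JUP were the only members with reads.

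**Figure D2:**
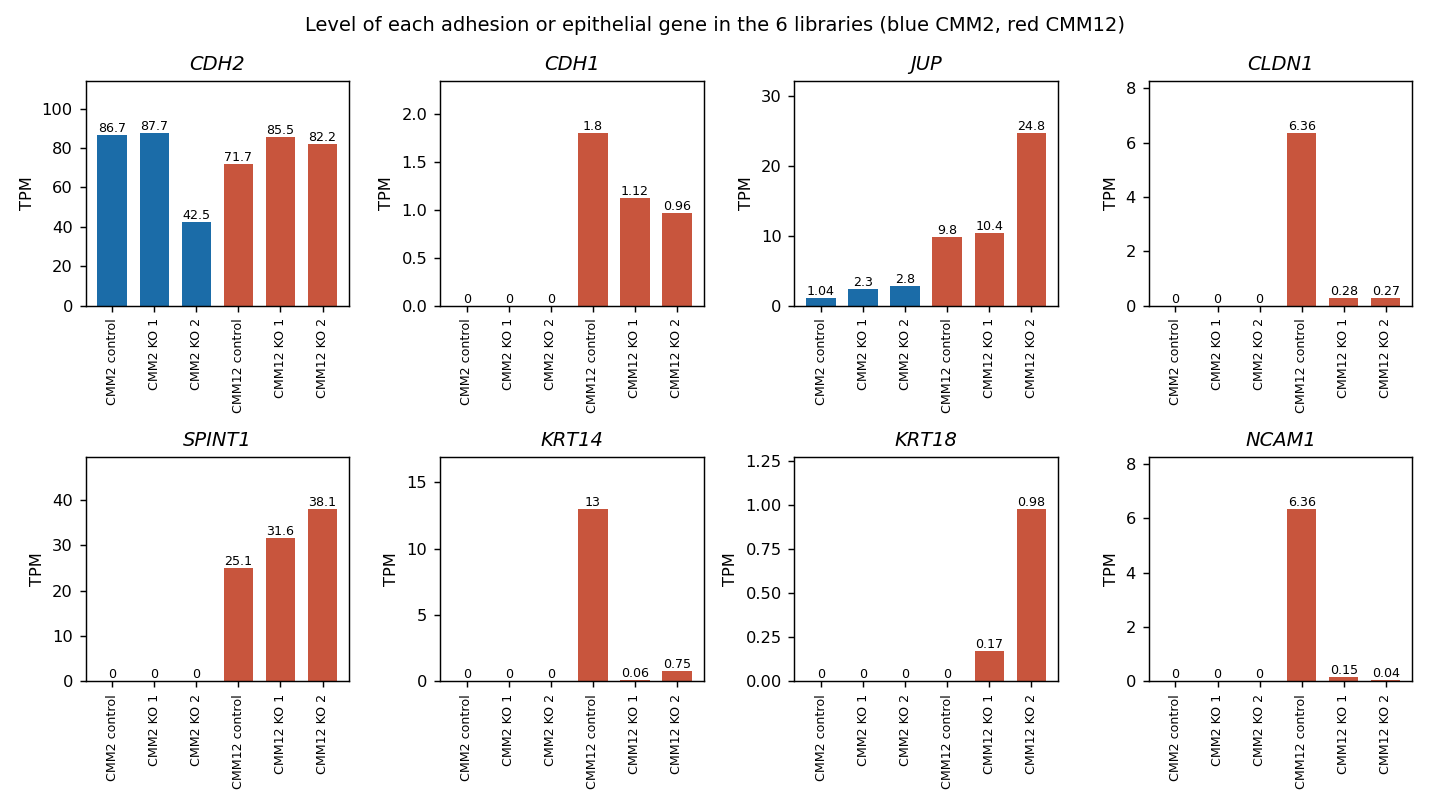
TPM of the 8 genes with a row in each of the 6 libraries, each panel on its own linear axis from 0, CMM2 in blue and CMM12 in red. CDH2 is present in all 6 libraries and JUP higher in CMM12, SPINT1 is present in every CMM12 library, and CLDN1, KRT14 and NCAM1 are tall in the CMM12 control only.

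Read over all 3 libraries of each line, 6 of the 7 tested members were called higher in CMM12 by edgeR at an adjusted p under 0.05, where 14.6% of all 12270 genes tested were. DESeq2 called 5 of them, with 17.7% of all genes, and did not call NCAM1. In 6 members every CMM12 library lay above every CMM2 library, as did 24.6% of all genes. Of the 8 members with a row, 6 had 0 counts throughout CMM2, among them KRT18, which was below the filter on low counts. Among the 12270 genes tested, 3.11% had 0 counts there. That share leaves out the genes below the filter, so the sets are unlike. The members were chosen on this contrast, so nothing is read from these counts. For CLDN1, KRT14 and NCAM1 the contrast rests on the CMM12 control: without that library they no longer passed the filter on low counts and had no fitted value. The summed keratinocyte markers were also higher in CMM12, by the values given above, and their part in these differences was not tested.

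In CMM12, CDH2, JUP, SPINT1 and KRT18 were higher in both KO libraries than in the control, and CDH1, CLDN1, KRT14 and NCAM1 were lower in both. JUP in KO 1 differed from the control by no more than counting error. KRT18 in the control and KO 1 lay under the floor of 3 counts, so their order is not read. CLDN1, KRT14 and NCAM1 were the 3 members at 10% or less of the control in both KO libraries. Of the 11272 tested genes at 1 CPM or more in that control, 71 (0.63%) were that low. The members were chosen with their levels known, and these 3 had nearly all of their reads in that control, so nothing is read from this share. In CMM2, 7 of 10673 tested genes at 1 CPM or more in the control (0.0656%) were that low in both KO libraries. No member was called in the KO comparison of either line or in the difference between lines by edgeR or DESeq2. Members at 0 counts throughout CMM2 could not be called there or in the difference. PDPN itself was not called by edgeR in CMM2 (log2 fold change -1.86, SE 0.35) or in CMM12 (-2.80, SE 0.34). DESeq2 called PDPN in CMM12 only. A missing call therefore does not show that KO left a gene unchanged. Over all genes, edgeR called 0% in CMM2 (233 genes at an unadjusted p under 0.05), 0.00815% in CMM12 (735 genes unadjusted) and 0% for the difference (471 genes unadjusted), and DESeq2 called 0.0489%, 0.406% and 0.179%. Each line has 1 control, which was assumed to vary like the KO pairs, so a difference between KO and control in CMM12 cannot be told apart from a trait of that 1 control library. Like CLDN1, KRT14 and NCAM1, the summed fibroblast markers of CMM12 were highest in the control. They summed to 2185 TPM in the control against 820 and 1361 in KO 1 and KO 2. Most of that sum was the collagen gene COL1A2, at 1465, 734 and 1179 TPM in these libraries. COL1A1, COL3A1 and LUM were also highest in the control. The markers were not of one order: PDGFRA and PDGFRB were higher in both KO libraries than in the control, and DCN was highest in KO 1. The keratinocyte markers of CMM12 summed to 45.1, 40.3 and 38.7 TPM, nearly all of it KRT10 (35.9, 39.5 and 35.1 TPM). SFN (stratifin), the other keratinocyte marker with more than 2 counts in a library, was highest in the control, as CLDN1 and KRT14 were. It stood at 9.03, 0.82 and 3.58 TPM in the CMM12 control, KO 1 and KO 2. The part of these markers in the result was not tested.

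**Figure D3:**
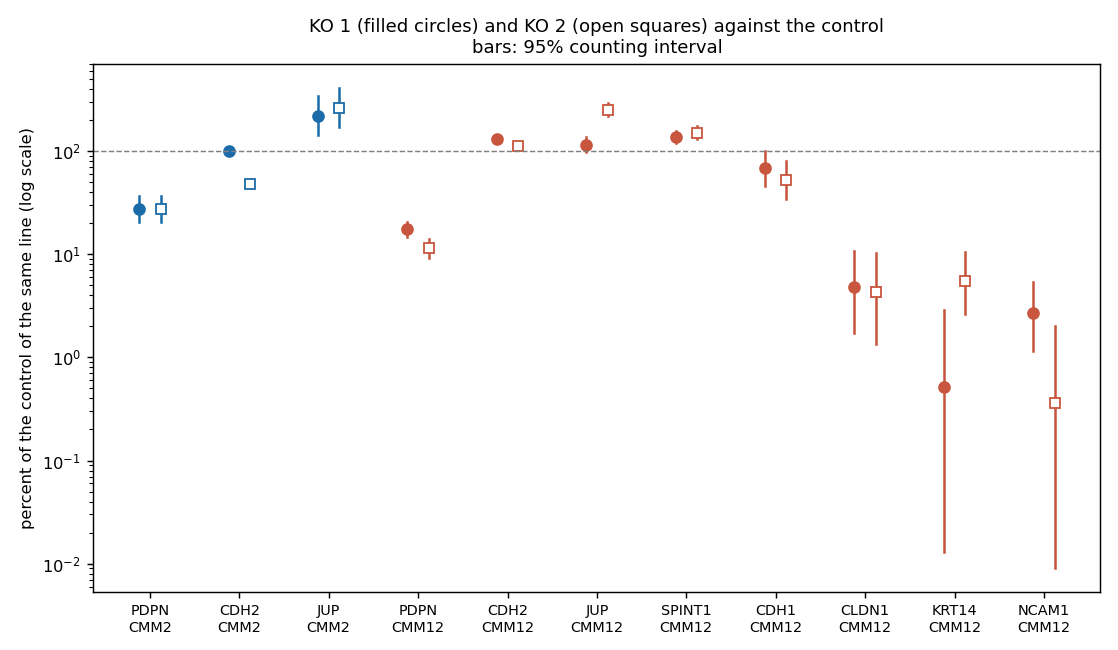
Level in each KO library as a percent of the control of the same line, in CPM on a log axis, for PDPN and the members with enough reads; bars are 95% exact counting intervals. CLDN1, KRT14 and NCAM1 lie at 0.362% to 5.53% of the CMM12 control, lower than PDPN at 11.4% and 17.4%, whereas CDH2, JUP and SPINT1 in CMM12 lie above 100%.

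The wider pathway was read from 7 lists of junction, keratin, epithelial surface, adhesion and epithelial regulator genes, with the members left out. Of 168 genes, 143 had a row and 72 were tested. Between the lines, 22 were higher in CMM12 and 9 lower (edgeR, adjusted p under 0.05), which is 43.1% of the 72, against 25.8% of all genes tested. The lists were chosen with earlier results of these data known, so these shares are a description and nothing is concluded from them. Of the 31 called genes, 6 had 0 counts in every CMM2 library and passed the filter on low counts through CMM12 only. The median log2 fold change was 0.41 over the lists and 0.04 over all genes, and both stayed so with genes at 0 in a line set to their bound. DESeq2 called all of the 31 as well. Only 15 of the 31 were called in each of the 6 fits that leave out a library, and leaving out 1 library gave 17 calls (no CMM2 KO 1), 19 (no CMM12 control) or 20 (no CMM2 control, or no CMM12 KO 2).

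In the adherens junction list, 4 of 16 tested genes were higher in CMM12 and 1 was lower. CDH6 was lower in CMM12, at 2.54 ± 1.53 CPM against 46.5 ± 23.8 CPM in CMM2 (SD, n = 3 each), with a log2 fold change of -4.07 (SE 0.61, edgeR adjusted p = 0.00442), which was -4.73 without either control and -3.48 without CMM12 KO 2. AFDN (afadin), which links nectins to actin, was higher, at 81.6 ± 11.4 against 41.5 ± 7.82 CPM (log2 fold change 0.98, SE 0.19, edgeR adjusted p = 0.0107). CTNNA1 (alpha-catenin), the actin link of cadherins, had a log2 fold change of 0.92 (SE 0.23, edgeR adjusted p = 0.0260), and lost the call without CMM2 KO 1, CMM2 KO 2 or CMM12 KO 2 (adjusted p 0.0604 to 0.102). CDH3 (P-cadherin) was low in both lines, at 0.372 ± 0.170 CPM in CMM2 and 2.64 ± 1.20 CPM in CMM12, and its call (edgeR adjusted p = 0.0185) was lost without either control, CMM2 KO 1 or CMM12 KO 2 (0.0615 to 0.0779). The fourth higher gene, CDH11, had a log2 fold change of 1.67 (SE 0.42, edgeR adjusted p = 0.0256) and lost its call without either control, CMM2 KO 1 or CMM12 KO 1 (0.0872 to 0.149). CTNND1 (p120-catenin) was at 152 ± 17.9 and 126 ± 9.02 CPM and was not called (log2 fold change -0.27, SE 0.16, edgeR adjusted p = 0.246).

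The desmosome list, which JUP also serves, gave 2 of 8 tested genes higher in CMM12 and none lower. PPL (periplakin) was at 17.0 ± 3.58 CPM in CMM2 and 39.9 ± 10.2 CPM in CMM12 (log2 fold change 1.23, SE 0.28, edgeR adjusted p = 0.0178), a call lost without either control, CMM2 KO 1 or CMM12 KO 2 (0.0702 to 0.0839). The other was DSG2, named after its values were seen, with 0 counts in CMM2 and 35 in CMM12 over 3 libraries each. The DSG2 call (edgeR adjusted p = 0.0282) was lost without either CMM12 KO library, the CMM2 control or CMM2 KO 1 (0.0636 to 0.0813). DSP (desmoplakin), which anchors keratins at the desmosome, had 0 counts in CMM2 and 31, 0 and 5 in the CMM12 control, KO 1 and KO 2, and was not called. EVPL (log2 fold change -0.80, SE 0.30) and PKP3 (-0.34, SE 0.35) were not called either.

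In the tight junction list 4 of 15 tested genes were higher in CMM12 and 3 were lower. F11R (JAM-A), a tight junction adhesion molecule, had 0 counts in CMM2 and stood at 15.6 ± 5.53 CPM in CMM12 (SD, n = 3), at least 56.1-fold above the floor (edgeR adjusted p = 0.00187). CLDN6, a claudin of embryonic epithelia, was at 0.793 ± 0.221 and 7.80 ± 2.35 CPM (log2 fold change 3.25, SE 0.40, edgeR adjusted p = 0.00238). JAM3 was at 16.3 ± 2.93 and 48.3 ± 6.18 CPM (log2 fold change 1.58, SE 0.20, edgeR adjusted p = 0.00238). Unlike CLDN1, F11R was present in every CMM12 library, at 16.6, 20.5 and 9.59 CPM. PARD3 and TJP1, which were among the lower genes, and the fourth higher gene, MARVELD2, were named after their values were seen. PARD3, a polarity scaffold, fell by 1.33 on the log2 scale in CMM12 (SE 0.20, edgeR adjusted p = 0.00420), and the call of TJP1, a scaffold, was lost in each of the 6 fits that leave out a library.

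Of 20 further keratins on the list, 8 were matched to a row by symbol. Of these, 5 had 0 counts in all 6 libraries and 2 were tested, with none called. KRT10, the type I keratin of differentiated epidermis, was at 40.7 ± 11.4 CPM in CMM2 and 59.2 ± 6.92 CPM in CMM12 (SD, n = 3 each; log2 fold change 0.54, SE 0.24, edgeR adjusted p = 0.135). KRT5, the partner of KRT14 in basal cells, and KRT7 and KRT19 were not matched to a row by symbol and are not analysed here.

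Beside SPINT1, the epithelial surface and matriptase list had 2 of 6 tested genes higher in CMM12 and none lower. SPINT2 was at least 97.9-fold above the floor of CMM2 in CMM12 (27.2 ± 10.4 CPM, SD, n = 3; edgeR adjusted p = 0.000641). F2RL1 (PAR2), a receptor cleaved by matriptase, was at 1.85 ± 0.176 CPM in CMM2 and 32.9 ± 19.8 CPM in CMM12 (log2 fold change 4.003, SE 0.32, edgeR adjusted p = 0.000609). MET, the receptor of hepatocyte growth factor, was high in both lines, at 1027 ± 216 and 618 ± 143 CPM. Its log2 fold change of -0.74 (SE 0.24) was not called by edgeR (adjusted p = 0.0549) and was called by DESeq2 (adjusted p = 0.0120).

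Around NCAM1, 6 of 12 tested genes of immunoglobulin-type adhesion and polysialic acid synthesis were higher in CMM12 and 1 was lower. MCAM (CD146), an adhesion molecule named for melanoma, had 5 counts over the CMM2 libraries and stood at 15.8, 14.0 and 13.3 CPM in CMM12 (log2 fold change 6.53, SE 0.63, edgeR adjusted p = 0.00110). The MCAM value was 7.91 without either control and 3.08 with limma on log2(TPM + 1). CADM4 was at 2.51 ± 0.612 and 30.4 ± 17.0 CPM (log2 fold change 3.48, SE 0.39, edgeR adjusted p = 0.00176). CEACAM1 had 0 counts in CMM2 and stood at 4.31, 4.56 and 4.60 CPM in CMM12, at least 16.2-fold above the floor (edgeR adjusted p = 0.00363). MCAM and CEACAM1 thus stood at like levels in the CMM12 control and KO libraries, where NCAM1 was read almost solely in the control. The lower gene was NEGR1, a neuronal adhesion molecule (log2 fold change -2.09, SE 0.54, edgeR adjusted p = 0.0289), and its call was lost without either CMM12 KO library or CMM2 KO 1 (0.0754 to 0.129). Of the enzymes, ST8SIA4 had a log2 fold change of 1.83 (SE 0.43, edgeR adjusted p = 0.0203), lost without either control, CMM2 KO 1 or CMM12 KO 1 (0.0658 to 0.0892). The call of ST8SIA2 (edgeR adjusted p = 0.0348) was lost in 5 of the 6 fits that leave out a library (0.0519 to 0.0949).

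Regulators of the epithelial state, which include repressors and activators of CDH1, had 4 of 13 tested genes higher and 4 lower in CMM12. The CDH1 repressors went both ways. SNAI1 was higher in CMM12, at 21.4 ± 2.03 against 3.80 ± 2.36 CPM (SD, n = 3 each; log2 fold change 2.55, SE 0.47, edgeR adjusted p = 0.00920). ZEB1 was lower, at 66.3 ± 13.4 against 128 ± 9.54 CPM (log2 fold change -0.96, SE 0.18, edgeR adjusted p = 0.00959). SNAI2 was lower (log2 fold change -1.23, SE 0.26, edgeR adjusted p = 0.0137) and lost its call without CMM12 KO 2 (0.0589), and ZEB2 was higher (0.77, SE 0.17, edgeR adjusted p = 0.0151) and lost its call without either control, CMM2 KO 1 or CMM12 KO 1 (0.0535 to 0.0674). Thus the line in which CDH1 was read had more SNAI1 and ZEB2 and less ZEB1 and SNAI2. ESRP1, an epithelial splicing regulator, had the opposite order to CDH1, at 3.05, 5.42 and 2.93 CPM in CMM2 and a single count over CMM12 (log2 fold change -6.50, SE 0.92, edgeR adjusted p = 0.00374). With so few reads the size is loose: it was larger without either control, at -8.52 without that of CMM2, and was -1.55 with limma on log2(TPM + 1). The other called regulators, GRHL1 and GRHL3 (higher) and TWIST2 (lower), were named after their values were seen and averaged under 6 CPM in each line. The call of GRHL1 was lost without either control, CMM12 KO 1 or CMM12 KO 2 (adjusted p 0.0551 to 0.1001), that of GRHL3 without CMM2 KO 1 or the CMM12 control (0.0537 and 0.0544), and that of TWIST2 without CMM2 KO 1 or CMM12 KO 2 (0.0541 and 0.0592). The epithelial activators GRHL2 and TP63 had 5 and 3 counts over all 6 libraries.

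**Figure D4:**
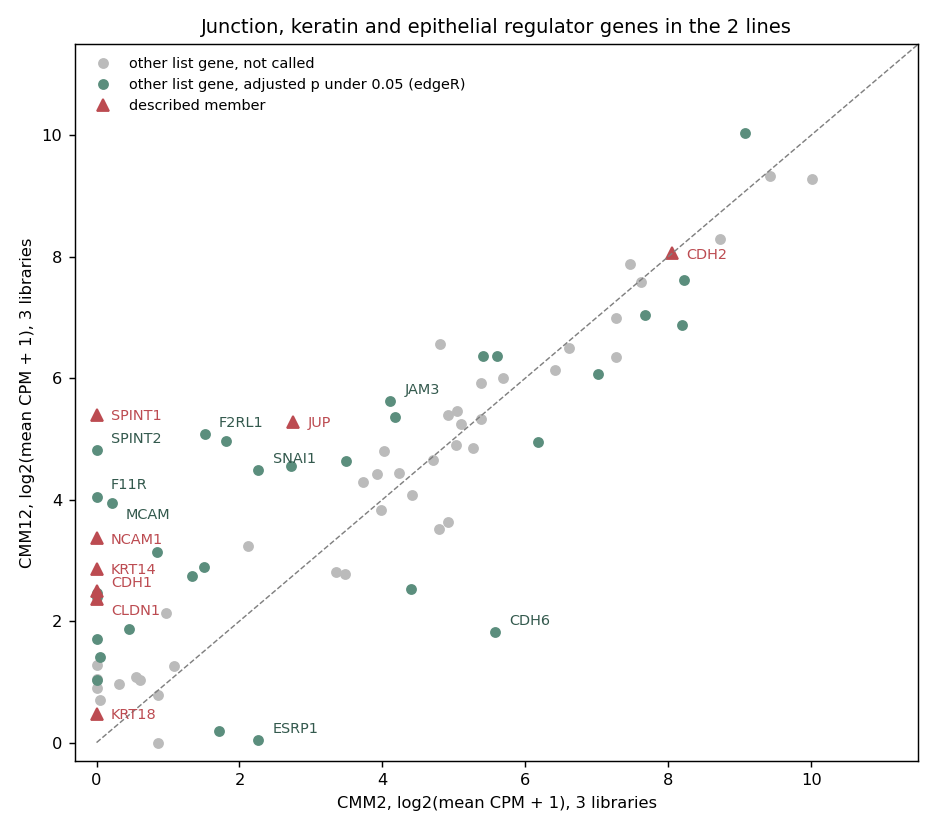
Mean level in CMM12 against CMM2, as log2(mean CPM + 1) over 3 libraries each, for the members (triangles) and the other genes of the lists that were tested (circles). Circles are green where edgeR's adjusted p was under 0.05, and the dashed line marks equal levels. CDH2 lies on the line, 6 members lie on the left edge with 0 counts in CMM2 beside SPINT2 and F11R, and CDH6 and ESRP1 lie below it.

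Podoplanin KO gave no call among the 72 genes of these lists by edgeR in CMM2, in CMM12 or for the difference, with 3, 16 and 8 at an unadjusted p under 0.05, where 1.90%, 5.99% and 3.84% of all genes were. The 72 include genes at 0 counts in every library of a line, such as SPINT2 and F11R in CMM2. Such genes could not be called in that line or for the difference. PDPN itself was not called by edgeR either, so the absence of calls does not show an absence of KO effects. PKP2 (plakophilin 2), a desmosomal protein that binds JUP, was at 21.7 CPM in the CMM12 control and at 2.74 and 0.783 CPM in KO 1 and KO 2, and at 1.91, 3.67 and 4.44 CPM in the CMM2 control, KO 1 and KO 2. Its order in CMM12 was that of CLDN1 and NCAM1 and opposite to that of JUP. The log2 fold change of KO over control in CMM12 was -3.61 (SE 0.70), called by DESeq2 (adjusted p = 0.0496) and not by edgeR (adjusted p = 0.589), and was -4.77 without KO 1 and -2.98 without KO 2. CDH11, a mesenchymal cadherin, was at 21.1, 5.24 and 2.36 TPM in the CMM12 control, KO 1 and KO 2 (log2 fold change -2.39, SE 0.53, and -3.17 without KO 1; edgeR adjusted p = 0.656), and F2RL1 had a log2 fold change of -1.37 (SE 0.31, edgeR adjusted p = 0.682). In CMM2 the smallest p-values were those of CDH13 (log2 fold change 1.93, SE 0.52), NEGR1 (1.25, SE 0.47) and MCAM (-2.79, SE 1.07), each with an edgeR adjusted p of 1. MCAM there rests on 4 counts in the control, 1 in KO 1 and 0 in KO 2, and its value was -5.08 without KO 1, -2.00 without KO 2 and -0.21 with limma on log2(TPM + 1).

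Genes whose profile over the 6 libraries was nearest to that of a member were sought among 10132 genes, by the root-mean-square difference of log2(CPM + 1) centred on each gene's mean. For CDH1 they were MAP3K21 (0.121), ARHGDIG (0.139) and CMTM8 (0.141). For CDH2 they were CDCA5 (0.0869), CDT1 (0.0963) and THG1L (0.107), and these too were lowest in CMM2 KO 2. For NCAM1 they were TNN (0.305), MSC (0.368) and SFRP2 (0.405). TNN (tenascin N), an extracellular matrix protein, stood at 26.3 CPM in the CMM12 control, 0 in KO 1 and 0.196 in KO 2, with 0 in CMM2.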

How the data were processed

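RNA of 6 cell line libraries was sequenced; the submitters' processing notes name the aligner STAR 2.7.3a, the quantifier RSEM 1.3.3 and the genome CanFam3.1. Expected counts per gene were deposited by the authors without scaling, per the file headers. The authors also deposited TPM, in which each library is scaled by transcript length. A strand setting was not given in the sources used here; antisense partners and near-identical copies cannot be told apart.

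Groups came from titles and genotypes. Expected counts were rounded, which changed 3.22% to 3.63% of values per library. Genes without a symbol (12940, with 7.89% to 8.85% of counts) stayed in the totals and tests. Libraries of a line differed by more than sampling noise (chi-square 14.5 to 59.3 per degree of freedom). CPM is the count over the library total times its TMM factor; the floor of 3 counts is 0.259 to 0.293 CPM, and floors and 95% intervals cover counting error only.

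The test was edgeR 4.0.16 in R 4.3.3 (quasi-likelihood, TMM, filterByExpr on 4 groups, Benjamini-Hochberg over 12270 genes, threshold 0.05). Lines were compared in an additive model of line and genotype, with 3 residual degrees of freedom, and KO effects in a model of 4 groups, with 2. The fit was also run on simulated data, in which each gene had the same level in all libraries apart from added changes. No gene was made absent from a whole line there, so that run does not cover genes at 0 in CMM2. Alternatives were DESeq2 1.42.0, limma 3.58.1 on log2(TPM + 1) and log2(TPM + 0.1), other scalings and filters, a replicate block and leaving out each library.

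The members and lists were chosen with earlier results of these data known. Named beside the members were PDPN, from each list up to 3 genes with the smallest p between lines at a mean of at least 1 CPM, up to 3 over all lists in each KO comparison, a fixed set (CTNNB1, CTNNA1, CTNND1, CDH3, DSP, KRT5, KRT7, KRT19, SPINT2, ST14, MET, ST8SIA2, ST8SIA4, SNAI1, SNAI2, ZEB1 and ZEB2) and the 3 nearest profiles of CDH1, CDH2 and NCAM1. Other genes named, such as further cadherins, surface proteases, EPCAM and GRHL2, were chosen after their values were seen.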

Additional observations from a re-analysis of the deposited data

Results flagged for a closer look

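Among the members and the list genes named by rule, 5 had both KO libraries on one side of the control in CMM2 and on the other side in CMM12, in CPM. Other genes of the lists and the nearest profiles were not screened. Of the nearest profiles of CDH2, CDT1 and THG1L also had both KO libraries lower than the control in CMM2 and higher in CMM12. CDT1 stood at 81.4, 80.5 and 43.0 CPM in the CMM2 control, KO 1 and KO 2, and at 59.5, 88.8 and 76.7 CPM in those of CMM12. CDH2 in CMM2 KO 1, at 99.1% of the control, differed from it by less than counting error and was above it in TPM, so only KO 2 was lower there. Both CMM12 KO libraries had more CDH2 than their control. The KO effect in CMM12 minus that in CMM2 was 0.73 for CDH2 on the log2 scale (SE 0.61), a description with no test. The other 4 were higher in the CMM2 KO libraries and lower in the CMM12 KO libraries than in their controls. The difference was -0.90 (SE 0.52) for PPL, -3.12 (SE 0.68) for CDH13, -2.42 (SE 0.65) for NEGR1 and -4.69 (SE 1.09) for PKP2. None of these 4 differences passed edgeR's test over all genes (adjusted p of 1.00 each), and DESeq2 called that of CDH13 (adjusted p = 0.0142). Each difference rests on 1 control per line.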

How the results depend on the processing

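Between the lines, 3170 genes were called, 31 of them on the lists. Leaving out each library gave 1499 to 3096 genes and 17 to 30 list genes. On log2(TPM + 1), limma gave 68.2% of calls as higher in CMM12 against 56.5% by edgeR, 17 higher and 7 lower on the lists, and moved the median of all genes from 0.04 to 0.15. CTNNB1 (-0.10) turned to 0.0386 with limma on log2(TPM + 1), with or without a filter, and to 0.0388 on log2(TPM + 0.1), and ranged from -0.188 to 0.0272 when leaving out a library, the highest without CMM2 KO 2. PKP3 (-0.34) ranged from -0.783 to 0.00409, the highest without CMM12 KO 1. The cause was not tested. KO in CMM2 gave 0 genes with edgeR, 6 with DESeq2, 1 with no low-count filter and 0 to 1 when leaving out a library. KO in CMM12 gave 1 gene with edgeR, 45 with DESeq2 (1 on the lists), 26 with no low-count filter, 0 at a minimum of 1 CPM in 2 libraries, 4 with the bias-adjusted fit, 0 with limma at either pseudocount, 75 with limma and no filter (1 on the lists), and 0 to 14 when leaving out a library. The difference gave 0 genes with edgeR, 22 with DESeq2 (1 on the lists), 2 with no low-count filter and 0 to 1 when leaving out a library. DESeq2 gave an adjusted p for 11080 of the 12270 genes in CMM12. A KO effect without that line's only control could not be fitted.

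Same-numbered KO libraries of the lines had a correlation of 0.0553 over 12270 genes in their deviations, over 2 pairs. A correlation between different lines cannot show what a number stands for. The labels do not say whether the numbers are shared between the lines. With KO number as a block, 2959 genes and 34 list genes were called between the lines. Of the members' values under alternatives, 208 moved by no more than the SE of the main fitted value and 38 by more. Depth limits KRT18 and the KO levels of CLDN1, KRT14 and NCAM1, each at 10 counts or fewer.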

Other observations

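Some adhesion genes of the lists differed between the KO libraries of 1 line, and were chosen after their values were seen. L1CAM, a neural adhesion molecule of the immunoglobulin family, had 339, 557 and 0 counts in the CMM2 control, KO 1 and KO 2, and 441, 716 and 1817 in those of CMM12. The CMM2 KO 2 library, in which CDH2 was also lowest, was thus the only one without L1CAM reads, which allows a level of up to 3 counts. In the same library, CADM1, a homophilic adhesion molecule, stood at 51.1 CPM against 13.6 in the control and 15.2 in KO 1, and ARVCF, a catenin of the p120 family, at 60.0 CPM against 14.0 and 20.5. CGNL1 (paracingulin), a junction adaptor, was at 34.9, 32.5 and 7.66 CPM in the CMM2 control, KO 1 and KO 2. The KO libraries of CMM2 were therefore unlike each other in these genes.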
